A study of Homo sapiens with 6 samples.

Results

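The genes described here are 10 members of the BCL2 family, listed apart from the p53-induced members BAX, BBC3 and PMAIP1. Whether p53 acts on any of the 10 was not tested. They were taken by name as 3 guardians (BCL2, BCL2L1, MCL1), 1 effector (BAK1) and 6 BH3-only genes (BCL2L11, BMF, HRK, BID, BAD, BIK), out of 17687 genes measured. Each of the 10 had exactly 1 probe set among those that carry 1 gene symbol in the platform annotation, so no choice between such probe sets was needed. Expression was measured on Affymetrix whole-transcript arrays in SH-SY5Y, an established human neuroblastoma cell line of sympathetic origin. The group 15EN had 3 samples, at passages 33, 34 and 35, and its treatment text gives 15 µM of a bioactive compound. The vehicle control group, VC, had 3 samples at the same passages. The VC samples carry the same treatment text, dose included, so the groups were taken from the sample titles. The series title names eurycomanone, a quassinoid of Eurycoma longifolia roots, while the labels do not spell out 15EN. Cells of both groups were differentiated with atRA (all-trans retinoic acid), with a time of 96 h in the protocol text. Each group is thus 1 cell line carried over 3 passages. Separate cultures are not otherwise stated, so the p-values reflect only how far these arrays vary, in part perhaps for technical reasons.

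BCL2 family proteins decide at the outer mitochondrial membrane whether a cell enters intrinsic apoptosis. Guardians hold the effectors BAX and BAK in check, BH3-only proteins bind guardians or activate effectors, and active effectors form pores through which cytochrome c leaves. In neurons and neuroblastoma cells BCL2, BCL-XL (the main product of BCL2L1) and MCL1 are the guardians most often studied.

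Values are normalized log2 signals per probe set, as deposited. An array gives no detection call here, so the 90th percentile of 612 negative control probe sets (7.41 to 7.99 over the 6 arrays) serves as a mark for dim signals, and 49.7% of all genes had a mean below the average of this mark. Array medians over genes were 7.60 to 7.71. The VC arrays correlated at Pearson's r of 0.991 to 0.993 across genes, and 15EN replicates 1 and 2 at 0.991. 15EN replicate 3 stood apart at 0.978 and 0.980 with these, so calls of the genes below that change without it are named, for those the alternatives were run on. Among 11 measured markers of adrenergic neuroblastoma cells, 8 were above the dim mark on all 6 arrays, including PHOX2A, HAND2, GATA2, GATA3, ISL1 and ELAVL4, while TH and CHGA were above it on none. STMN2 (-1.72 ± 0.22, SE, limma adjusted p = 0.000687) and DBH (-1.59 ± 0.23, adjusted p = 0.00112) were the markers of smallest p, and the list had 0 higher and 6 lower genes with a median difference of -0.91. GATA2 (-0.91), TH (-0.09), GATA3 (0.07), HAND2 (0.09) and TBX2 (0.24) did not pass. DBH was above the dim mark on only 1 of the 15EN arrays, so the size of its difference is uncertain. The list's summed signal, as a log2 of the sum, was 16.65 to 16.91 in 15EN and 17.13 to 17.48 in VC. Linear signals were summed, so the brightest genes weigh most in this sum and in those that follow. For substrate-adherent neuroblastoma genes the summed signal was 15.82 to 16.33 in 15EN and 16.84 to 16.92 in VC, and for fibroblast genes 13.49 to 13.95 in 15EN and 13.35 to 14.05 in VC. The mean of 4 hybridization controls, added to each array, was 10.3 to 10.6 in 15EN and 11.2 to 11.4 in VC. The part of these shifts in the results on BCL2 family genes was not tested. In such bulk RNA, fewer cells of a type and less RNA per cell cannot be told apart. All 6 measured markers of Schwann cells and glia lay below the dim mark on every array, ERBB3 (-0.31) and CDH19 (-0.29) among them, and 0 of 6 were called.

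In the 15EN samples, 2 of the 10 genes were higher, 2 were lower and 6 did not pass the threshold of limma adjusted p 0.05 over all genes. BAK1 and MCL1 rose by 1.37 and 1.08 on the log2 scale, and BCL2 and BMF were lower, with log2 differences of -2.50 and -2.35. The background is high in this comparison: 21.4% of all genes passed, 12.3% as higher and 9.09% as lower. The same 4 genes were those whose 15EN and VC values did not overlap, a pattern found in 36.3% of all genes. The median log2 difference was -0.26 over the 10 genes and 0.01 over all genes, and the median size of the difference was 0.53 against 0.34. Ranked by p over all genes, BMF stood at 191 and BCL2 at 266. Directions are relative to the median gene as deposited. Scaling the arrays to the hybridization controls added 0.87 to each gene's difference and placed the median gene at 0.88. BCL2 (-1.63) and BMF (-1.48) were still lower and MCL1 (1.95) and BAK1 (2.24) still higher after that shift.

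**Figure D1:**
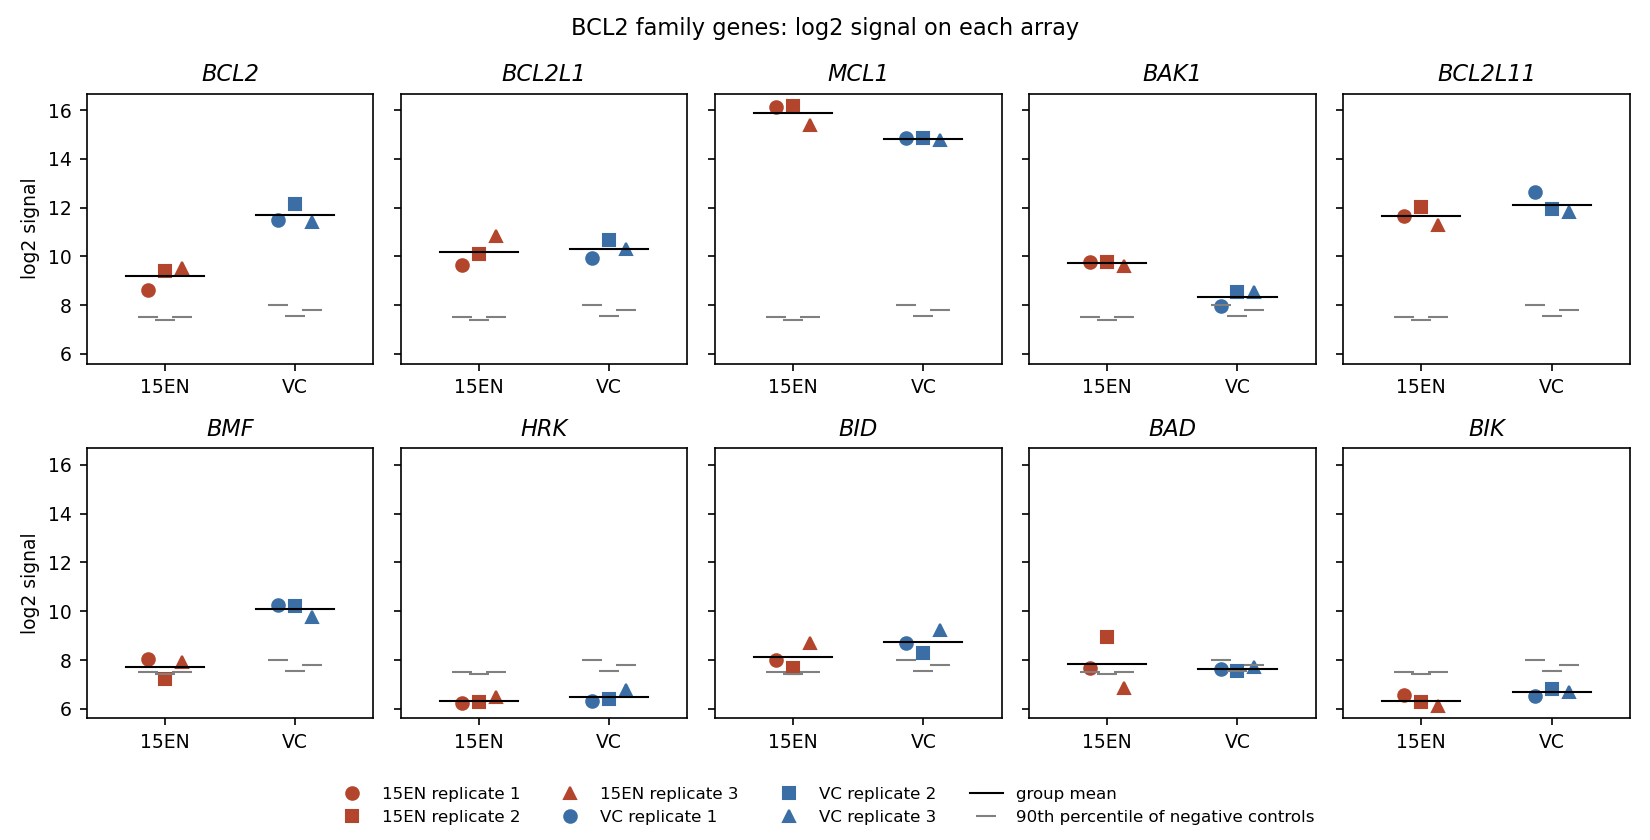
Log2 signal (vertical axis, shared by all panels) of each of the 10 genes on each array, 15EN left and VC right, with 1 symbol per replicate number, the group mean as a black line and the 90th percentile of the negative controls of that array as a grey dash. The 3 VC values of BCL2 (11.40 to 12.16) and of BMF (9.78 to 10.24) lie above all 15EN values, those of MCL1 and BAK1 lie below them, and HRK and BIK lie under the grey marks on every array.

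Sequence before the transcription start was read from RefSeq windows (GRCh38.p14) for 8 of the 10 genes. MCL1 and BIK were not matched. The windows below cover the 250 bases before an annotated start. BAK1 and BMF are shown as genes that moved in opposite directions, and BCL2L11 and HRK because their windows hold a match for a stress-responsive factor. All 4 are printed 5′ to 3′ on the gene's strand, and capitals mark motif matches on either strand. The BAK1 window is chr6:33580277-33580526 and the BMF window chr15:40108880-40109129, both on the minus strand. BCL2L11 is shown from chr2:111120664-111120913 on the plus strand, and HRK from chr12:116881442-116881691 on the minus strand.
BAK1: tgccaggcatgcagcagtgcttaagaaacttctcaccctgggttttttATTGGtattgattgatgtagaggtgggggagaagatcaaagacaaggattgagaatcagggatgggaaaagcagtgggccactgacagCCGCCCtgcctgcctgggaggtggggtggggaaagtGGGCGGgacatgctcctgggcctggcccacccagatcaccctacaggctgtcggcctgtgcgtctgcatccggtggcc
BMF: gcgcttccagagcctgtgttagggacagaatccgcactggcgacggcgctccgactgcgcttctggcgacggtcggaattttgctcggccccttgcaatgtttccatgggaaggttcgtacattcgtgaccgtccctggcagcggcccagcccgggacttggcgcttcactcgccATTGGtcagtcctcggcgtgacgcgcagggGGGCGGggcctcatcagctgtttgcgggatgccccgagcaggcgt
BCL2L11: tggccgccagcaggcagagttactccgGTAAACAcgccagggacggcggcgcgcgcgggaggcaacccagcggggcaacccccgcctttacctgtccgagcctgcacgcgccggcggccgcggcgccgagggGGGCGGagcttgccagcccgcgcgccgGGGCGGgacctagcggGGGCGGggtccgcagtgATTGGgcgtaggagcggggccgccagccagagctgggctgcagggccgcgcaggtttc
HRK: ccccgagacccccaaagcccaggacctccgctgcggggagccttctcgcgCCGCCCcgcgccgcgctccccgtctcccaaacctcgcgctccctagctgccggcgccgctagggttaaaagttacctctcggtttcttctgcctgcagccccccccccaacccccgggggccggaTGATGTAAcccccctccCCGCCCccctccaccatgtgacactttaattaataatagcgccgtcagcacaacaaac

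The motifs searched on both strands were the GC box GGGCGG of SP1, the CCAAT box of NF-Y, the CRE TGACGTCA of CREB and ATF factors, the AP-1 site TGANTCA, the element TGATGNAA bound by ATF4 and CHOP with C/EBP partners, the FOXO site GTAAACA and the E-box CACGTG of MYC. The CCAAT and GC boxes do not overlap in the 4 windows shown. BAK1 held 2 GC boxes and 1 CCAAT box, and BMF 1 of each. BCL2L11 held 3 GC boxes, 1 CCAAT box and 1 FOXO site, which began at base -223 counted from the start. HRK held 2 GC boxes and 1 ATF4 and CHOP element, which began at base -75. The BCL2 window held 0 matches, and its letters are not shown because it lies within the annotated span of the gene. Of 35116 RefSeq windows of the same length, 42.6% held a GC box, 32.0% a CCAAT box, 6.57% an AP-1 site, 6.34% an E-box, 3.14% the ATF4 and CHOP element, 2.98% the FOXO site and 1.65% the CRE. Of the 8 genes with a window, 6 held a GC box and 4 a CCAAT box. The E-box (in BID), the FOXO site and the ATF4 and CHOP element were found in 1 gene each, and the CRE and the AP-1 site in 0. Some genes have more than 1 window, so counts of genes cannot be set directly against shares of windows. Another window of BMF, within the annotated span of the gene, held 0 matches. These matches describe letters in a window and are not evidence of binding.

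Among the guardians, BCL2 and MCL1 moved in opposite directions and BCL2L1 did not pass. BCL2, the founding guardian of the family, had log2 signals of 8.63, 9.39 and 9.53 in the 15EN replicates, against 11.47, 12.16 and 11.40 in VC. All 15EN values lay below all VC values and above the dim mark. The difference was -2.50 ± 0.30 (SE, limma adjusted p = 0.000485), a level 5.64-fold lower in 15EN, and the same-numbered differences were -2.85, -2.77 and -1.87.

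MCL1 encodes a guardian with a short-lived mRNA and protein. It gave 16.14, 16.17 and 15.38 in 15EN, against 14.85, 14.85 and 14.76 in VC. Every 15EN array was above every VC array, and 15EN replicate 3 was the lowest of its group. MCL1 rose by 1.08 ± 0.25 (SE, limma adjusted p = 0.0126), or 2.11-fold. Without 15EN replicate 1, 15EN replicate 2 or VC replicate 3 the rise was 0.96, 0.94 or 1.05 and did not pass (adjusted p = 0.051, 0.0511 and 0.054), whereas without 15EN replicate 3 it was 1.34 (adjusted p = 0.000544).

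BCL2L1, which encodes the guardian BCL-XL and, by alternative splicing, the pro-apoptotic BCL-XS, had 9.64, 10.09 and 10.82 in 15EN and 9.95, 10.68 and 10.31 in VC. The groups overlapped, with the highest value in 15EN replicate 3. Its difference was -0.13 ± 0.32 with a 95% interval of -0.83 to 0.58 (limma adjusted p = 0.841). The array has 1 value for the gene and does not separate the splice forms.

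BAK1 encodes BAK, an effector that sits in the outer mitochondrial membrane and forms pores once active. Its signals were 9.75, 9.76 and 9.61 in 15EN, against 7.95, 8.56 and 8.52 in VC. The 15EN values were tightly grouped and all above the VC values, of which that of replicate 1 lay below the dim mark. BAK1 rose by 1.37 ± 0.23 (SE, limma adjusted p = 0.00253), or 2.58-fold.

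Of the 6 BH3-only genes, 0 were higher and 1 was lower, with a median difference of -0.41. Over all genes, 12.3% were higher and 9.09% lower, which is the background for this count and for those of the other lists. BMF, whose product is tethered to the cytoskeleton in healthy cells and released on stress, had 8.04, 7.23 and 7.91 in 15EN, against 10.24, 10.21 and 9.78 in VC. No 15EN value came near the VC range, and that of replicate 2 was below the dim mark. The difference was -2.35 ± 0.27 (SE, limma adjusted p = 0.000368). With 1 dim value in 15EN, the 5.1-fold size of this fall is uncertain.

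BCL2L11 encodes BIM, a BH3-only protein that binds all guardians and can activate the effectors. Its signals were 11.64, 12.04 and 11.30 in 15EN and 12.63, 11.94 and 11.81 in VC. The groups overlapped, and VC replicate 1 was the highest. Its difference was -0.46 ± 0.28 (95% interval -1.09 to 0.17, limma adjusted p = 0.307).

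BID, which links death receptors to mitochondria after cleavage by caspase-8, had 8.02, 7.68 and 8.72 in 15EN and 8.68, 8.31 and 9.22 in VC. The groups overlapped, although each 15EN value was below the VC value of its own passage, by differences of -0.66, -0.62 and -0.50. The fit gave -0.60 ± 0.32 (limma adjusted p = 0.232) and, in the paired fit that blocks on replicate number, an adjusted p of 0.071. BID passed only without 15EN replicate 3 (-0.88, adjusted p = 0.0316), among the 14 alternatives tried.

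BAD encodes a BH3-only protein that growth factor kinases silence by phosphorylation. Its values were 7.69, 8.96 and 6.85 in 15EN, against 7.63, 7.56 and 7.72 in VC. The 15EN arrays lay on both sides of the VC arrays, and the SD was 1.06 in 15EN against 0.08 in VC (n = 3 each). BAD was above the dim mark on only 2 of the 15EN arrays and 1 of the VC arrays, so a change in transcript level could be missed. The difference of 0.20 ± 0.43 had the widest interval of the 10 genes, -0.76 to 1.15 (limma adjusted p = 0.815).

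HRK and BIK, BH3-only genes studied in neuronal and in epithelial apoptosis, were below the dim mark on all 6 arrays. HRK gave 6.25, 6.28 and 6.49 in 15EN and 6.31, 6.41 and 6.75 in VC, a difference of -0.15 ± 0.21 (limma adjusted p = 0.703). BIK gave 6.56, 6.29 and 6.11 in 15EN and 6.54, 6.81 and 6.70 in VC, a difference of -0.36 ± 0.21 (adjusted p = 0.288). At such signals a change in transcript level could be missed. After scaling to the hybridization controls the differences of BCL2L1, BCL2L11, HRK, BID and BIK were positive (0.27 to 0.74), all below the median gene of that setting, and HRK (0.72, adjusted p = 0.0271) and BAD (1.07, adjusted p = 0.0386) passed against 0.

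**Figure D2:**
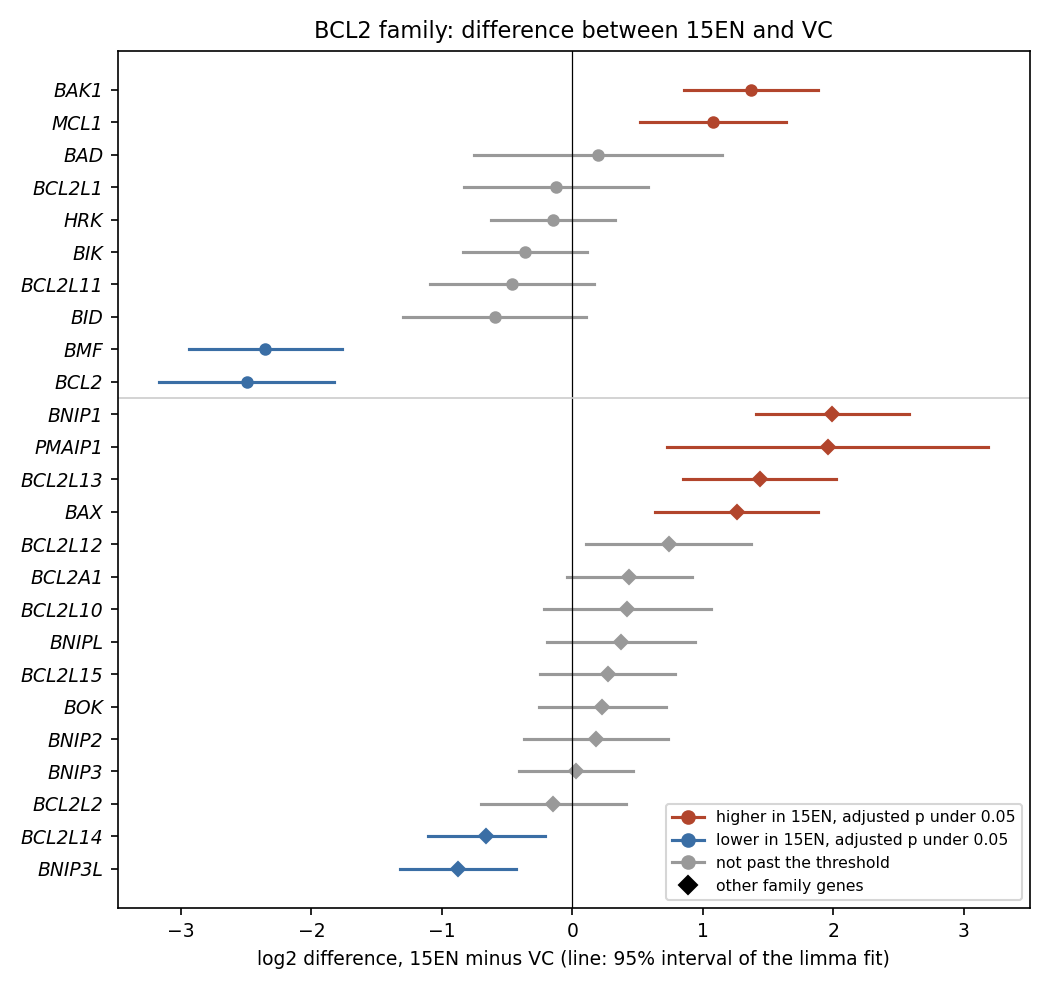
Log2 difference of 15EN minus VC (horizontal axis) with its 95% interval from the limma fit, for the 10 genes (circles, above) and for other BCL2 family and BNIP genes (diamonds, below), coloured where adjusted p was under 0.05. BAK1 and MCL1 lie right of 0, BMF and BCL2 left of it, and the intervals of the other 6 genes include 0.

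The pore-forming relative of BAK and the BH3-only gene PMAIP1, both known p53 targets, were higher in 15EN. BAX, the second main effector, had 13.33, 14.20 and 14.08 in 15EN, against 12.25, 12.86 and 12.72 in VC. It rose by 1.26 ± 0.28 (SE, limma adjusted p = 0.0101), a rise that did not pass without VC replicate 1 (1.08, adjusted p = 0.0504). PMAIP1 encodes NOXA, which binds MCL1. It had 10.25, 9.39 and 7.53 in 15EN, against 7.52, 6.76 and 7.03 in VC, and 15EN replicate 3 was only just above the highest VC value. All 3 VC values were dim, so the size of the difference is uncertain. Its rise of 1.96 ± 0.55 (adjusted p = 0.0297) was lost on leaving out any 1 array except 15EN replicate 3 (adjusted p = 0.0588 to 0.118). Without that array it was 2.72 (adjusted p = 0.000107). BBC3, which encodes PUMA, was not analysed here.

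The 13 other BCL2 family and BNIP genes had 2 higher, 2 lower and 9 that did not pass, with a median difference of 0.27, and 6 of them were below the dim mark on every array. BNIP1, a membrane protein of the endoplasmic reticulum with a BH3-like stretch, rose by 1.99 ± 0.26 (limma adjusted p = 0.000754), at 9.46, 9.84 and 9.52 in 15EN against 8.14, 7.40 and 7.31 in VC. Of its VC values only that of replicate 1 was above the dim mark, so the size is uncertain. BCL2L13, a mitochondrial family member linked to mitophagy, rose by 1.44 ± 0.26 (adjusted p = 0.00398). The mitophagy receptor gene BNIP3L differed by -0.88 ± 0.20 (adjusted p = 0.0114), which did not pass without VC replicate 1 (adjusted p = 0.0513), and by -0.01 after scaling to the hybridization controls. Its relative BNIP3 differed by 0.03 ± 0.20 (adjusted p = 0.95). BCL2L14 was dim on all arrays, and its difference of -0.66 ± 0.20 (adjusted p = 0.0407) became 0.21 after that scaling. It also lost its call in the paired fit (adjusted p = 0.0557), after quantile normalization (0.0687) and without any 1 array except 15EN replicate 3 (0.0702 to 0.144). BCL2L2, the guardian BCL-W, differed by -0.15 ± 0.25 (adjusted p = 0.761). BCL2L12 differed by 0.74 ± 0.29 (adjusted p = 0.0975) and passed in the paired fit (0.0478) and without 15EN replicate 3 (0.0255) or VC replicate 2 (0.0478). It also passed against 0 after scaling to the hybridization controls (1.61, adjusted p = 0.000544). BCL2L12 was above the dim mark on 2 of the 15EN arrays and 0 of the VC arrays, so the size of its difference is uncertain. The effector-like BOK (0.23), the guardian genes BCL2A1 (0.44) and BCL2L10 (0.42), and BCL2L15 (0.27), BNIPL (0.37) and BNIP2 (0.18) did not pass. After scaling to the hybridization controls, which raised every gene by 0.87, all of these passed against 0 (1.05 to 1.30). BCL2L2 (0.72) and BNIP3 (0.89) did so as well.

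Both dynein light chain genes of the list were higher. DYNLL1 and DYNLL2 encode small motor subunits that bind BIM and BMF and hold them at microtubules and actin. DYNLL1 had 13.27, 12.87 and 12.37 in 15EN, against 11.23, 10.91 and 10.97 in VC, and rose by 1.80 ± 0.26 (limma adjusted p = 0.00115). DYNLL2 had 14.31, 13.96 and 13.62 in 15EN, against 12.28, 12.21 and 12.48 in VC, and rose by 1.64 ± 0.23 (adjusted p = 0.00112). Neither gene's groups overlapped, and both kept their call under all 14 alternatives.

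Of 14 measured genes on the stability of MCL1 protein, 2 were higher and 0 lower, with a median of -0.06. IER3, a stress-induced gene whose product binds MCL1, rose by 4.85 ± 0.29 (limma adjusted p = 4.53e-05). Its VC values were all dim, so the size is uncertain. FBXW7, the substrate receptor of a ubiquitin ligase for MCL1 and MYC, had 10.77, 10.73 and 10.04 in 15EN, against 9.35, 8.91 and 8.99 in VC, and rose by 1.43 ± 0.26 (adjusted p = 0.00347). The deubiquitinase gene USP13 (-0.65 ± 0.22, adjusted p = 0.0584) and the kinase gene GSK3B (-0.56 ± 0.20, adjusted p = 0.0725) did not pass. Both passed after quantile normalization (0.0396 and 0.0323), after removal of a brightness trend (0.031 and 0.0312) and without 15EN replicate 3 (0.0157 and 0.0327). USP13 also passed with the dimmest genes left out (0.0438) and without both arrays of number 3 (0.0422), and GSK3B with a trended robust prior (0.0402). After scaling to the hybridization controls they were positive, 0.22 and 0.31.

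The 24 measured genes for kinases, phosphatases and 14-3-3 proteins that act on BAD had 6 higher and 4 lower, with a median of -0.10. AKT1, the survival kinase that phosphorylates BAD, had 8.80, 9.31 and 8.81 in 15EN, against 11.02, 10.83 and 11.32 in VC, a difference of -2.09 ± 0.24 (limma adjusted p = 0.000373). The ribosomal S6 kinase gene RPS6KA3 rose by 1.27 ± 0.22 (adjusted p = 0.00298). PIM2 rose by 1.67 ± 0.34 (adjusted p = 0.00607) and PIM1 by 1.63 ± 0.41 (adjusted p = 0.0174), both kinases that also phosphorylate BAD. PIM2 was above the dim mark on only 2 of the VC arrays. The call of PIM1 was lost when VC replicate 1 (adjusted p = 0.074) or VC replicate 3 (0.0773) was left out.

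Of 14 transcription factor genes known to act on BH3-only genes, 2 were higher and 1 lower, with a median of 0.43. ATF4, the main regulator of the integrated stress response, rose by 2.27 ± 0.25 (limma adjusted p = 0.000325), and DDIT3, which encodes CHOP, by 2.78 ± 0.37 (adjusted p = 0.00083). The VC values of DDIT3 were all dim. It was above the dim mark on only 2 of the 15EN arrays, so the size of its difference is uncertain. JUN had 12.06, 13.06 and 10.36 in 15EN, against 10.17, 10.72 and 10.13 in VC. Its groups overlapped through 15EN replicate 3 (1.49 ± 0.54, adjusted p = 0.0793), but it passed in the paired fit (0.0141) and without that array (2.22, adjusted p = 0.000384). Without 15EN replicate 2 its difference was 0.87 (adjusted p = 0.252). ATF2 differed by -0.88 ± 0.24 (adjusted p = 0.0258), by -0.01 after scaling to the hybridization controls, and did not pass without any 1 array except 15EN replicate 3 (0.0671 to 0.0992). FOXO3, an activator of BIM in neurons, differed by 0.46 ± 0.23 (adjusted p = 0.196), and HRK, whose window holds the element of ATF4 and CHOP shown above, was the dim gene already described.

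In a list of mitochondrial membrane proteins and of factors released from mitochondria, 2 of 14 genes were higher and 2 lower, with a median of 0.31. TIMM8A, an import chaperone of the intermembrane space, rose by 2.59 ± 0.24 (limma adjusted p = 0.00019), at 11.86, 11.31 and 11.43 in 15EN against 9.14, 9.01 and 8.66 in VC. VDAC3, a channel of the outer membrane, had 10.42, 10.33 and 10.78 in 15EN, against 12.33, 11.74 and 12.09 in VC, a difference of -1.54 ± 0.24 (adjusted p = 0.00154). MTX1 (1.28 ± 0.34, adjusted p = 0.0223) rose and OMA1 (-1.05 ± 0.23, adjusted p = 0.00858) fell. OMA1 was dim on all arrays and MTX1 on all 3 VC arrays, so their sizes are uncertain. MTX1 did not pass without 15EN replicate 2, VC replicate 1 or VC replicate 2 (0.0656 to 0.0935), and OMA1 lost its call if VC replicate 2 was left out (0.0503) and under hybridization control scaling (-0.19). CYCS, which encodes cytochrome c, differed by 0.59 ± 0.22 (adjusted p = 0.0878), and DIABLO, the IAP antagonist SMAC, by 0.54 ± 0.21 (adjusted p = 0.0946).

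Of 6 measured genes of the IAP (inhibitor of apoptosis protein) family, 1 was higher and 0 lower, with a median of -0.24. BIRC6 rose by 0.72 ± 0.22 (limma adjusted p = 0.0369). That call was lost after quantile normalization (0.0723), after removal of a brightness trend (0.105) and without any 1 array except 15EN replicate 3 (0.0837 to 0.128). NAIP differed by -0.86 ± 0.31 (adjusted p = 0.0781, 0.0271 in the paired fit, 0.0359 after quantile normalization, 0.0396 after removal of a brightness trend). BIRC5 differed by -0.49 ± 0.24 (adjusted p = 0.187) and XIAP by -0.24 ± 0.22 (adjusted p = 0.527).

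**Figure D3:**
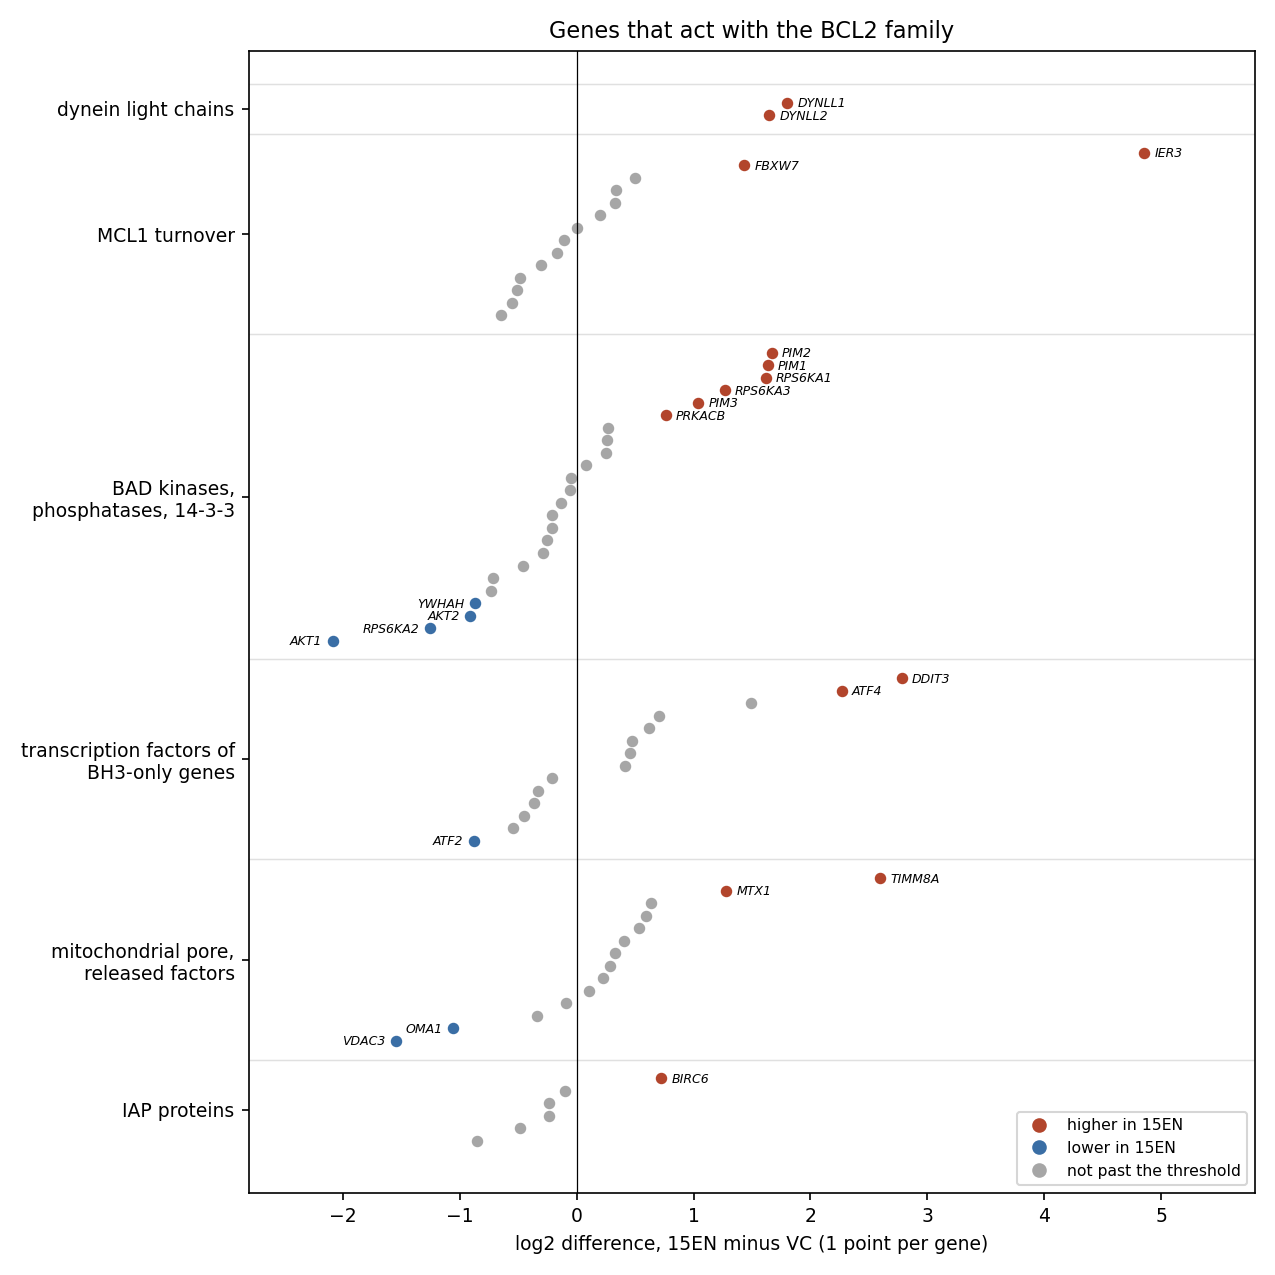
Log2 difference of 15EN minus VC (horizontal axis) of every measured gene in 6 lists of BCL2 family partners, 1 point per gene ordered by value within its list, coloured and named where adjusted p was under 0.05. DYNLL1 and DYNLL2 are both right of 0, and the other lists hold points on both sides of 0.

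Across the processing alternatives BCL2, BMF and BAK1 kept their direction and their call in all 14, and MCL1 in 11 of 14. The difference of BCL2 ran from -2.81 to -1.63, that of BMF from -2.59 to -1.48 and that of BAK1 from 1.17 to 2.24.

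**Figure D4:**
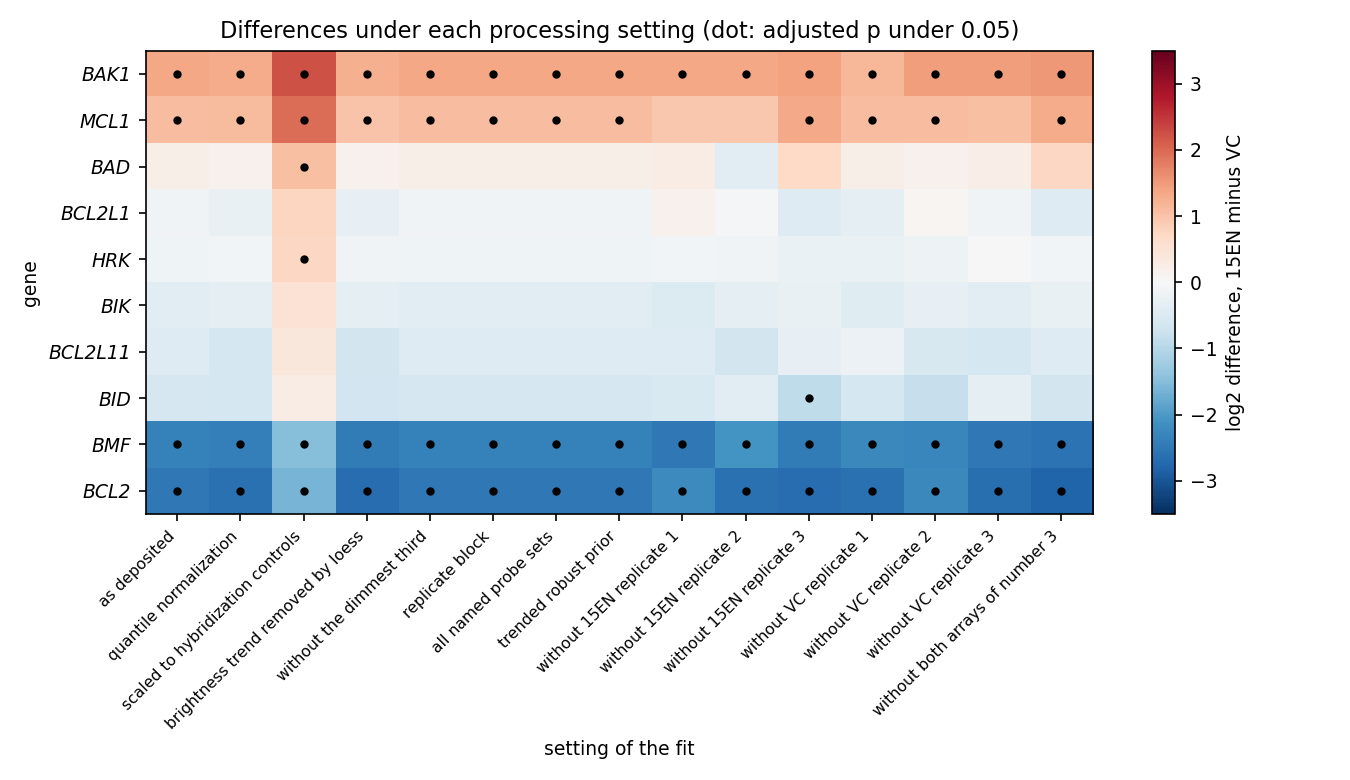
Log2 difference of 15EN minus VC (colour) of the 10 genes (vertical axis) under the deposited values and 14 alternatives (horizontal axis), with a dot where adjusted p was under 0.05. The BCL2, BMF and BAK1 rows carry a dot throughout, the MCL1 row lacks it in 3 columns that each leave out 1 array, and scaling to the hybridization controls shifts every row up by the same 0.87.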

How the data were processed

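Gene expression was measured on 6 whole-transcript arrays, 3 labelled 15EN and 3 VC, from 100 ng of total RNA per the labels' protocols. The authors deposited normalized log2 signals per probe set, made with the Transcriptome Analysis Console per the submitters' processing notes. The sources used here do not give its version, the summarization or a build, and the log2 scale was judged from the values. Of 21448 gene probe sets, 17709 carried 1 gene symbol in the platform annotation, and all of these matched a RefSeq gene (GRCh38.p14). The brightest probe set was kept per gene (22 set aside), which left 17687 genes with no filter on dim signals.

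The test was limma (version 3.58.1, under R 4.3.3) with lmFit and eBayes, group as the only term, two-sided, and p-values adjusted by Benjamini-Hochberg over all genes, with a threshold of 0.05. Errors beside differences are standard errors of that fit. The procedure was tested on simulated data. Deviations of same-numbered arrays from their group means correlated at 0.229, 0.162 and 0.133 across genes, against -0.138 to -0.0165 for other pairs, and the labels give each number 1 passage in titles and source names (descriptions name passage 33 throughout). The replicate number as a block was therefore run as a paired alternative. Other alternatives were quantile normalization, scaling to hybridization controls, removal of a brightness trend, leaving out dim genes, all named probe sets, a trended robust prior, and leaving out arrays. The number of arrays limits the precision.

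The text names all 10 genes, the other family genes, up to 4 genes of smallest p per list of partners and up to 2 per list of cell markers. FOXO3, CYCS, DIABLO, NOTCH2, VIM and SNAI2, and the adrenergic markers listed by name, were added after their values were seen. The genes and lists were chosen with earlier results of these data known.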

Additional observations from a re-analysis of the deposited data

How the results depend on the processing

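Of 140 member values under the 14 alternatives, 127 kept their direction and side of the threshold, 3 lost a call, 2 gained one and 8 changed sign. Scaling to the hybridization controls, which adds 0.87 to every gene, gave 4 higher members instead of 2, and 12150 higher and 437 lower genes instead of 2179 and 1608. The same scaling turned the sign of BCL2L1 (0.74), BCL2L11 (0.41), HRK (0.72), BID (0.27), BIK (0.50), BCL2L14 (0.21), BCL2L2 (0.72), BIRC5 (0.38), CDH19 (0.58), ERBB3 (0.55), GSK3B (0.31), NAIP (0.012), THY1 (0.077), USP13 (0.22) and XIAP (0.63). Leaving out 1 array gave 1 to 2 higher and 2 to 3 lower members (3 without 15EN replicate 3, with BID), 1301 (without VC replicate 2) to 3227 (without 15EN replicate 3) higher genes and 970 to 2240 lower genes, in smaller fits. In those fits the difference ran from -0.45 to 0.14 for BCL2L1, from -0.37 to 0.69 for BAD, from -0.28 to 0.073 for BCL2L2, from -0.034 to 0.40 for BNIP2 and from -0.019 to 0.056 for BNIP3. BNIP3 was also -0.14 after quantile normalization and -0.15 after removal of a brightness trend, and without both arrays of number 3 BCL2L10 was -0.041 and ERBB3 0.0070. The causes of these changes were not tested. With the replicate number as a block there were 2 higher and 2 lower members and 2415 higher and 1788 lower genes, and no call of a member changed. For 45 other genes named by the rule, 532 of 624 values kept direction and side, 47 lost a call, 27 gained one and 18 changed sign. The alternatives were not run for FOXO3, CYCS, DIABLO, NOTCH2, VIM, SNAI2 and the adrenergic markers other than STMN2 and DBH. Dim signals limit what can be said of HRK, BIK and BCL2L14, and of the other genes described above as dim on some or all arrays, BAD and BCL2L12 among them.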

Other observations

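The patterns over the 6 arrays most like those of BAK1 and of BMF, the members of smallest p in each direction, were found by Pearson's r on the log2 scale, as a description over arrays that share 2 groups. For BAK1 they were MRPL49 (0.998), FBXO45 (0.997) and PCYT1A (0.997), among 23 genes over 0.99. For BMF they were PTMA (0.999), KLHL12 (0.998) and TLX2 (0.998), among 34 such genes.

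Among markers of other cells, substrate-adherent neuroblastoma genes had 2 higher and 3 lower of 11, with YAP1 at 1.43 ± 0.21 (limma adjusted p = 0.00118) and FOSL2 at 2.10 ± 0.36 (adjusted p = 0.00289) as the higher genes. YAP1 was above the dim mark on only 1 of the VC arrays, so the size of its rise is uncertain. The 3 lower genes were NOTCH2 (-1.51 ± 0.27, adjusted p = 0.00373), VIM (-0.95 ± 0.21, adjusted p = 0.0106) and SNAI2 (-0.73 ± 0.21, adjusted p = 0.033), and the list's median was -0.34. Fibroblast genes had 0 higher and 2 lower of 7, COL1A1 at -0.88 ± 0.27 (adjusted p = 0.0393) and THY1 at -0.79 ± 0.25 (adjusted p = 0.0459). Neither passed after scaling to the hybridization controls (-0.01 and 0.08). COL1A1 did not pass without 4 of the 6 arrays, nor THY1 without 4 of them. COL1A1 was above the dim mark on only 1 15EN array and 2 VC arrays, so the size of its difference is uncertain.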
